A study of Mus musculus with 6 samples.

Results

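The calcium handling genes of the cardiomyocyte studied here were 10 genes chosen by name: *Ryr2*, *Casq2*, *Casq1*, *Trdn*, *Hrc*, *Jph2*, *Atp2a2*, *Pln*, *Cacna1c* and *Slc8a1*. They were found by NCBI gene ID in a table of 18019 genes, and all 10 were present and passed the filter on low values. With each heartbeat, calcium enters a heart muscle cell through the L-type channel and triggers a larger release from the sarcoplasmic reticulum (SR), the internal calcium store, through the ryanodine receptor. Contraction ends when a pump returns the calcium to the store and an exchanger moves the remainder out of the cell. Reduced pump activity and leaky release are well known features of failing hearts.

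The tissue was heart of wild-type mice, taken 8 weeks after surgery. The operation, transverse aortic constriction (TAC), makes the left ventricle pump against a narrowed aorta. In VNS-TAC mice the dorsal motor nucleus of the vagus had been injected with a recombinant adeno-associated virus, rAAV-ChAT-hChR2[H134R]-GFP, in which the promoter of choline acetyltransferase drives a light-activated channel fused to green fluorescent protein. Ctrl-TAC mice had received rAAV-ChAT-GFP, the same virus without the channel, and had the same aortic operation. There were 3 libraries of each group, grouped by sample title, because a treatment tag reads VNS for all 6. The VNS-TAC libraries are named with 10Hz in the labels. Hearts without TAC are not analysed here, and the sources used here do not give the age, sex or strain of the mice or the part of the heart. Whether libraries come from different animals is not stated, and p-values then reflect only how far these libraries spread, which may be technical.

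Expression was given as FPKM, fragments per gene scaled by gene length and by the library's total, so levels can be set side by side between genes. The steps of low values put the depth at about 13700000 to 15840000 fragments per library. Marker lists for 9 cell types described the tissue. The 15 cardiomyocyte markers, among them *Myl2* and *Mb*, were all detected and summed to 68121 to 105604 FPKM in VNS-TAC, against 77530 to 80917 FPKM in Ctrl-TAC. On the log2(FPKM + 1) scale their mean less that of Ctrl-TAC came to 0.25, 0.15 and -0.28 in VNS-TAC 1 to 3, and lay between -0.01 and 0.01 in Ctrl-TAC. The 10 atrial markers summed to 4536 to 10490 FPKM in VNS-TAC, against 3629 to 10902 FPKM in Ctrl-TAC. Averaged over these markers, log2 values less the control level came to -0.48, -0.03 and 0.48 in VNS-TAC 1 to 3. Ctrl-TAC 1 to 3 stood at 0.34, -0.93 and 0.59, so the controls differed among themselves. *Bmp10* was at 0.28, 1.02 and 9.25 FPKM in VNS-TAC 1 to 3, against 33.25, 1.03 and 0 FPKM in Ctrl-TAC. The remaining lists, as means relative to Ctrl-TAC in VNS-TAC 1, 2 and 3, stood at -0.55, -0.65 and -1.33 for fibroblasts, at -0.13, -0.12 and -0.25 for endothelium, at -0.52, -0.42 and -0.47 for smooth muscle and pericytes, at 0.19, -0.31 and -0.61 for macrophages, at 1.46, 1.19 and 1.82 for neutrophils and at 1.58, 0.01 and -1.91 for erythrocytes. The neutrophil markers summed to 58.6, 48.8 and 105 FPKM in VNS-TAC, against 2.78 to 6.69 FPKM in Ctrl-TAC. By the means of the lists, VNS-TAC 3 stood lowest of the 6 for cardiomyocytes, fibroblasts, endothelium, macrophages and erythrocytes. It was also lowest for the skeletal muscle markers described with *Casq1*, and highest for neutrophils. Not every cardiomyocyte marker was lowest in VNS-TAC 3. Results that rest on this library are given with and without it. The part of these cell types in the results was not tested.

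Setting VNS-TAC against Ctrl-TAC asks whether these genes differ in the overloaded heart when vagal neurones carry the light-activated channel. None of the 10 genes separated the groups. The values of VNS-TAC and Ctrl-TAC overlapped for all 10 genes, so the groups were apart for 0 of 10, while they did not overlap for 25.4% of the 11422 genes tested. By limma, 0 of 10 passed the adjusted threshold of 0.05 and 0 of 10 had an unadjusted p under 0.05, against 0% and 15.0% of all genes tested. Of the 10, 8 were lower and 2 higher on average in VNS-TAC, where 61.8% of all genes were lower. The median log2 fold change of the 10 genes was -0.22 and that of all genes -0.08. Without VNS-TAC 3 the median of the 10 genes was -0.01 and 5 were lower, while all genes had a median of -0.10 and 63.8% were lower. In bulk tissue, fewer cardiomyocytes and less RNA per cardiomyocyte cannot be told apart.

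**Figure D1:**
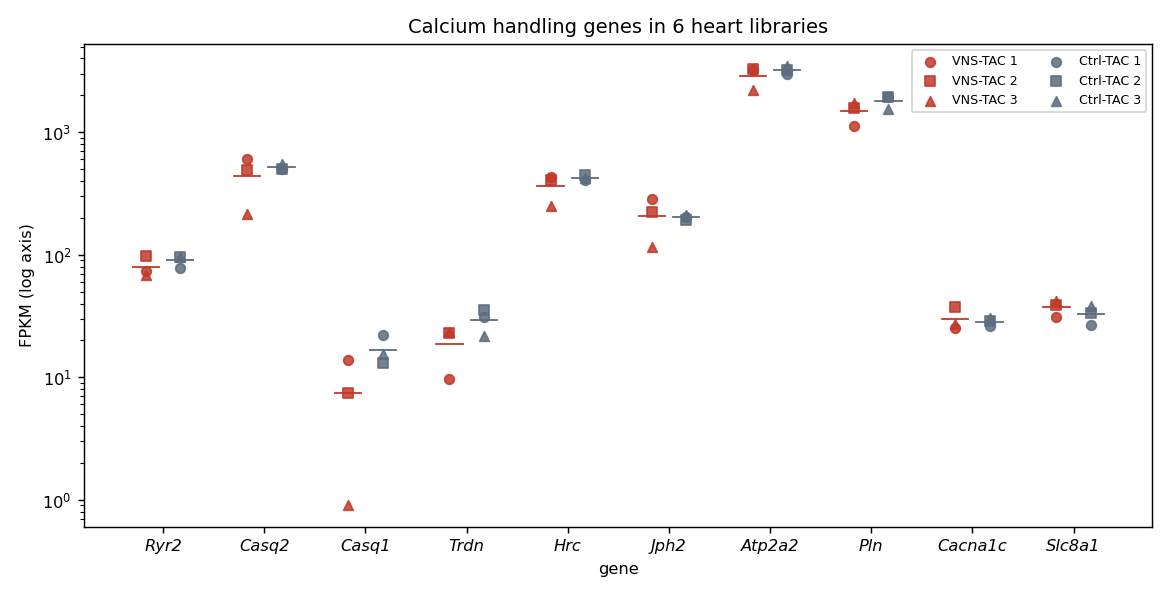
FPKM of the 10 genes on a log axis, with a point for each library and a line for the group mean (3 VNS-TAC libraries in red on the left, 3 Ctrl-TAC libraries in grey on the right). The levels run from 3473.75 FPKM for Atp2a2 in Ctrl-TAC 3 down to 0.91 FPKM for Casq1 in VNS-TAC 3, and the groups overlap for every gene.

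The VNS-TAC libraries were the more spread. The SD of the log2 values was larger in VNS-TAC than in Ctrl-TAC for 9 of the 10 genes, the exception being *Slc8a1*, and for 81.6% of all genes tested. The median SD of the 10 genes was 0.38 in VNS-TAC, against 0.14 in Ctrl-TAC. Over all genes it was 0.25 in VNS-TAC, against 0.11 in Ctrl-TAC. The difference in spread was not tested. VNS-TAC 3 was the lowest of the 6 libraries for 6 of the 10 genes (*Ryr2*, *Casq2*, *Casq1*, *Hrc*, *Jph2* and *Atp2a2*) and for 26.5% of all genes. VNS-TAC 1 was the lowest for 3 genes (*Trdn*, *Pln* and *Cacna1c*) and for 37.7% of all genes. The median deviation of the 10 genes was -0.02 on the log2 scale in VNS-TAC 2, against -0.11 in VNS-TAC 1 and -0.47 in VNS-TAC 3. Highs and lows cancel in this median. VNS-TAC 2 was above every control for 4 genes and below every control for 2, and VNS-TAC 1 above for 2 and below for 4.

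**Figure D2:**
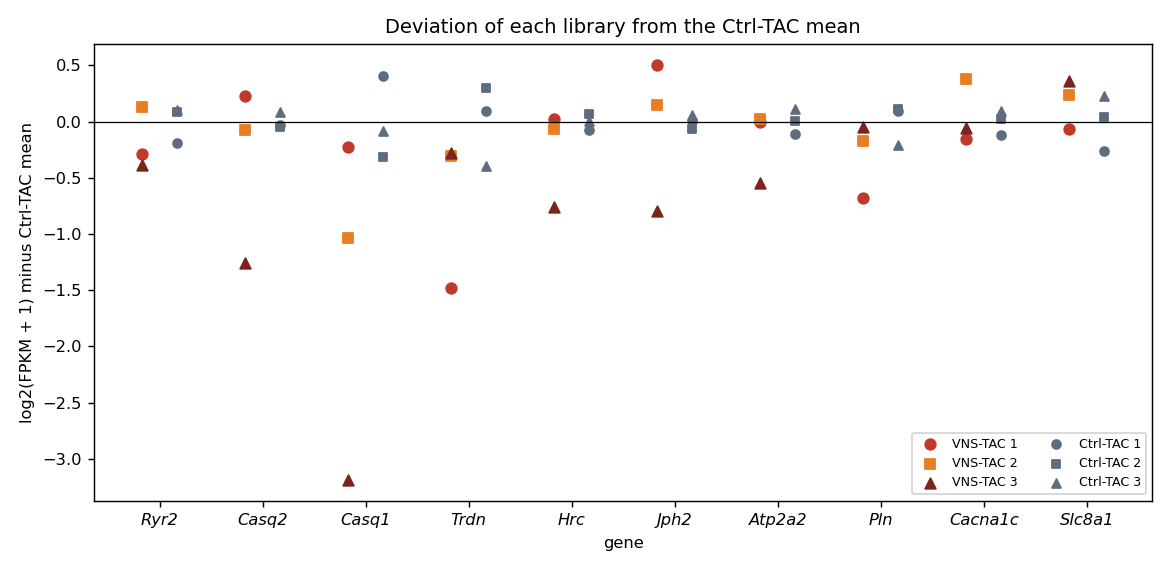
Difference of log2(FPKM + 1) in each library from the mean of the 3 Ctrl-TAC libraries, for the 10 genes (VNS-TAC in colours on the left, Ctrl-TAC in grey on the right of each gene). VNS-TAC 3 lies furthest below for Casq1 (-3.19) and Casq2 (-1.26), and VNS-TAC 1 for Trdn (-1.48) and Pln (-0.68).

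*Ryr2* encodes the cardiac ryanodine receptor, the channel that releases calcium from the SR (chromosome 13, 11553099 to 12106945, GRCm38.p6). It stood at 73.30, 97.91 and 68.39 FPKM in VNS-TAC 1 to 3, against 78.56, 95.31 and 96.02 FPKM in Ctrl-TAC 1, 2 and 3. VNS-TAC 2 was above every control and the other two VNS-TAC libraries below every control. Its log2 fold change was -0.18 ± 0.17 (SE), with a 95% interval of -0.58 to 0.21 and a limma adjusted p of 0.602. It was -0.08 without VNS-TAC 3 and -0.34 without VNS-TAC 2.

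The calsequestrins bind calcium inside the SR, *Casq2* encoding the cardiac form and *Casq1* the form that predominates in fast skeletal muscle. *Casq2* (chromosome 3, 102086415 to 102146514) was at 604.87, 490.15 and 215.89 FPKM in VNS-TAC 1 to 3, against 504.94, 499.11 and 547.83 FPKM in Ctrl-TAC. The controls lay within a 1.10-fold range, whereas the VNS-TAC libraries covered 2.80-fold, with VNS-TAC 1 above and VNS-TAC 3 below all controls. This gave a log2 fold change of -0.37 ± 0.35 (SE; 95% interval -1.19 to 0.46; limma adjusted p = 0.612), and 0.08 without VNS-TAC 3.

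*Casq1* (chromosome 1, 172209894 to 172219895) had the lowest level of the 10 genes and the largest difference. It was at 13.91, 7.49 and 0.91 FPKM in VNS-TAC 1 to 3, against 22.09, 12.96 and 15.38 FPKM in Ctrl-TAC. VNS-TAC 1 overlapped the controls and the other two VNS-TAC libraries were below them. The value in VNS-TAC 3 corresponds to about 26 fragments, and those of the controls to about 328 to 575. The log2 fold change was -1.48 ± 0.68 (SE), with a 95% interval of -3.07 to 0.11, a limma adjusted p of 0.349 and an unadjusted p of 0.0632. Without VNS-TAC 3 it was -0.63 (limma adjusted p = 0.248), and without VNS-TAC 1 it was -2.11 (limma adjusted p = 0.131). The exons of *Casq1* share 8% of their bases with an antisense RNA, Gm17224, in GENCODE M21, and the sources used here do not say whether counting used strand.

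Because *Casq1* is best known from skeletal muscle, 14 skeletal muscle markers were read beside it. Some genes of the list were nearly absent, with *Myh1* at 0 to 0.06 FPKM, *Myh4* at 0.01 to 0.03 FPKM and *Ryr1*, the skeletal ryanodine receptor, at 0 to 0.07 FPKM over all 6 libraries. Others were detected above that, among them *Cacna1s* at 4.01 to 4.75 FPKM and *Tnni2* at 1.0 to 2.86 FPKM. The highest of the list were *Acta1*, skeletal actin, and *Mybpc2*, a fast myosin-binding protein. *Acta1* was at 968.46, 1381.96 and 84.89 FPKM in VNS-TAC 1 to 3, against 3986.29, 2957.47 and 1569.33 FPKM in Ctrl-TAC. *Mybpc2* was at 20.16, 17.57 and 13.19 FPKM in VNS-TAC, against 38.63, 28.59 and 22.75 FPKM in Ctrl-TAC. Both had no overlap between the groups and were lowest in VNS-TAC 3, as *Casq1* was, and neither passed (limma adjusted p = 0.31 and 0.245). They were the 2 genes apart and lower of the 5 past the filter, against 17.4% of all genes tested. The list as a whole summed to 109.51 to 1409 FPKM in VNS-TAC, against 1602 to 4034 FPKM in Ctrl-TAC. That sum is mostly *Acta1* and follows this gene rather than the list. Of its 5 genes past the filter, 3 were lower and 2 higher, with a median of -0.02 on the log2 scale. The higher ones, *Tnni2* and *Mylpf*, fast troponin I and a fast myosin light chain, were at 0.40 and 0.24 and overlapped between the groups.

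The 250 bases before the annotated starts of the 2 calsequestrin genes, from RefSeq (GRCm38.p6), are shown because the ratio of these paralogs, given further on, did not overlap between the groups. *Hrc* and *Pln* are shown beside them as genes lowest in VNS-TAC 3 and in VNS-TAC 1. Capitals mark the E-box CANNTG, a motif read the same on both strands. The windows are chr1:172219896-172220145, minus strand for *Casq1*, chr3:102086165-102086414, plus strand for *Casq2*, chr7:45335019-45335268, plus strand for *Hrc*, and chr10:53337436-53337685, plus strand for *Pln*.
Casq1: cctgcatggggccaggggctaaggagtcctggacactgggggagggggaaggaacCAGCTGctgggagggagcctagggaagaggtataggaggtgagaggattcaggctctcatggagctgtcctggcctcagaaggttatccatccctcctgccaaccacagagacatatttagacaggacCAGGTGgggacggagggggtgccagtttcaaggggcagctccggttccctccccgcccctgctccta
Casq2: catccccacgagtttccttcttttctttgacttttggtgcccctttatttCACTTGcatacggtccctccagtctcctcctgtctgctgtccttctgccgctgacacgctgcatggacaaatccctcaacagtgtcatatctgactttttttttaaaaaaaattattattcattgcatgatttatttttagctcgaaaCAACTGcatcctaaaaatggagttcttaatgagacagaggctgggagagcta
Hrc: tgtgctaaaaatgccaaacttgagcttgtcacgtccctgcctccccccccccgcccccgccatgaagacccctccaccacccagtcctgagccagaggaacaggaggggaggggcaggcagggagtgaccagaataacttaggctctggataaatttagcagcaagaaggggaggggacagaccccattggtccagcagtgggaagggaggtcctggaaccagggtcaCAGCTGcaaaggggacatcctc
Pln: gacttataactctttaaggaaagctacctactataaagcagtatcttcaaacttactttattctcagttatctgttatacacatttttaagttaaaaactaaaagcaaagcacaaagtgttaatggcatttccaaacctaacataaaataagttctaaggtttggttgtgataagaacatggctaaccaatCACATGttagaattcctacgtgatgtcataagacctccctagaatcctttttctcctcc
The table of starts held 8 of the 10 genes, without *Trdn* and *Atp2a2*, and each listed start of those 8 had an E-box, which 66.2% of 32851 such windows hold. The 2 calsequestrin windows differed in composition, with 61.6% G+C for *Casq1* and 41.6% for *Casq2*. A match to the MEF2 motif, searched on both strands, was present for *Casq2* alone of the 8 genes, first base at -69 from the start, and in 2.92% of all windows. TATAAA, also searched on both strands, was present for *Pln* alone, at -219, and in 12.4% of all windows. GGGCGG, searched likewise, was present for *Casq1*, *Hrc*, *Jph2* and 1 of 3 *Cacna1c* starts, and in 32.7% of all windows. These matches describe letters only.

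*Trdn* encodes triadin, which anchors calsequestrin to the ryanodine receptor in the SR membrane (chromosome 10, 33083483 to 33476709). It was at 9.68, 23.04 and 23.50 FPKM in VNS-TAC 1 to 3, against 30.87, 35.54 and 21.69 FPKM in Ctrl-TAC. VNS-TAC 1 lay below all other libraries and the other two VNS-TAC libraries just above Ctrl-TAC 3. Its log2 fold change was -0.69 ± 0.34 (SE; 95% interval -1.49 to 0.11; limma adjusted p = 0.375), and -0.30 without VNS-TAC 1.

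*Hrc* encodes the histidine-rich calcium binding protein of the SR lumen, which binds triadin and the SR pump (chromosome 7, 45335269 to 45338973). It was at 432.22, 407.54 and 250.58 FPKM in VNS-TAC 1 to 3, against 404.71, 446.83 and 425.82 FPKM in Ctrl-TAC. VNS-TAC 1 and VNS-TAC 2 lay among the controls and VNS-TAC 3 below them. This gave a log2 fold change of -0.27 ± 0.22 (SE; 95% interval -0.77 to 0.24; limma adjusted p = 0.557), and -0.02 without VNS-TAC 3.

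*Jph2* encodes junctophilin 2, which holds the SR against the cell membrane at the sites of release (chromosome 2, 163336242 to 163398049). It was at 286.91, 223.56 and 115.87 FPKM in VNS-TAC 1 to 3, against 203.00, 193.00 and 209.90 FPKM in Ctrl-TAC. The controls lay within a 1.09-fold range, with VNS-TAC 1 and VNS-TAC 2 above all of them and VNS-TAC 3 below. The log2 fold change was -0.05 ± 0.31 (SE; 95% interval -0.76 to 0.67; limma adjusted p = 0.948). Without VNS-TAC 3 it was 0.33 (limma adjusted p = 0.22), so a group mean near that of the controls joined libraries on either side of them.

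*Atp2a2* encodes SERCA2, the pump that returns calcium to the SR, and its 2 main splice forms are not separated in a value per gene (chromosome 5, 122453513 to 122502225). It had the highest level of the 10 genes, at 3200.59, 3256.16 and 2200.21 FPKM in VNS-TAC 1 to 3, against 2968.37, 3220.46 and 3473.75 FPKM in Ctrl-TAC. VNS-TAC 1 and VNS-TAC 2 lay within the range of the controls and VNS-TAC 3 below it. Its log2 fold change was -0.18 ± 0.20 (SE; 95% interval -0.65 to 0.29; limma adjusted p = 0.667), and 0.01 without VNS-TAC 3.

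*Pln* encodes phospholamban, the small membrane protein that inhibits SERCA2 until it is phosphorylated (chromosome 10, 53337686 to 53345999). It was at 1118.12, 1589.15 and 1739.22 FPKM in VNS-TAC 1 to 3, against 1919.41, 1943.74 and 1548.54 FPKM in Ctrl-TAC. VNS-TAC 1 was below all other libraries, and VNS-TAC 2 and VNS-TAC 3 lay between the controls. This gave a log2 fold change of -0.30 ± 0.21 (SE; 95% interval -0.79 to 0.19; limma adjusted p = 0.50). It was -0.11 without VNS-TAC 1, -0.43 without VNS-TAC 3 and 0.04 once the trend with G+C content was removed from each library. In GENCODE M21 the transcripts Gm47644 and *Cep85l* on the opposite strand share 59.6% and 5.11% of the exon bases of *Pln*, so its reads cannot be told apart from theirs if strand was not used.

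*Cacna1c* encodes the pore of the L-type calcium channel (chromosome 6, 118587240 to 119197384). It was at 25.32, 37.13 and 27.24 FPKM in VNS-TAC 1 to 3, against 26.00, 28.78 and 30.30 FPKM in Ctrl-TAC. VNS-TAC 2 lay above all controls, VNS-TAC 1 just below them and VNS-TAC 3 among them. The log2 fold change was 0.06 ± 0.16 (SE; 95% interval -0.33 to 0.44; limma adjusted p = 0.88).

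*Slc8a1* encodes the sodium-calcium exchanger NCX1, which moves calcium out of the cell (chromosome 17, 81373105 to 81738387). It was at 31.08, 38.58 and 42 FPKM in VNS-TAC 1 to 3, against 26.94, 33.43 and 38.35 FPKM in Ctrl-TAC. The groups overlapped, with VNS-TAC 3 the highest of the 6 libraries. Its log2 fold change was 0.18 ± 0.17 (SE; 95% interval -0.23 to 0.58; limma adjusted p = 0.622), and 0.09 without VNS-TAC 3, 0.30 without VNS-TAC 1 and 0.04 without Ctrl-TAC 1. It was 0.48 with the groups apart once the trend with G+C content or that with transcript length was removed (limma adjusted p = 0.317 and 0.282). In these fits 1255 and 1471 of 11319 genes were apart and higher.

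**Figure D3:**
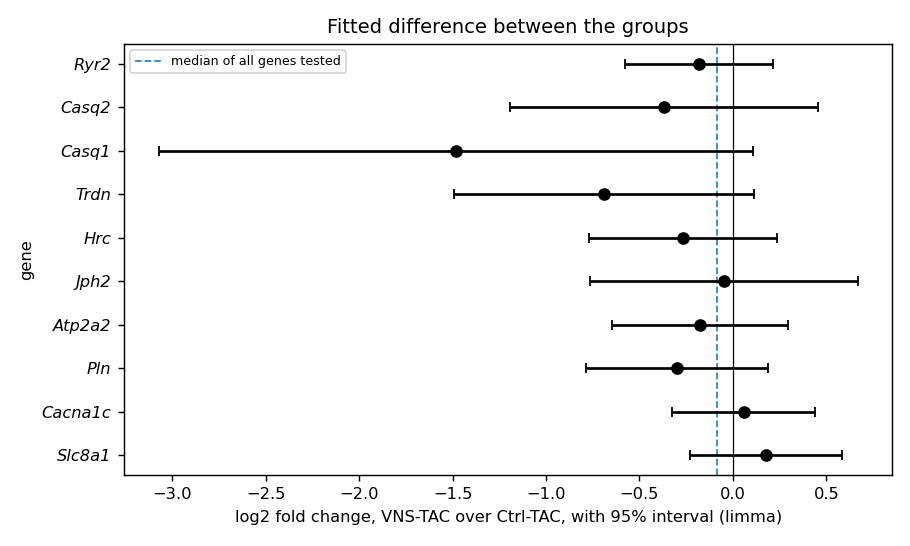
Log2 fold change of VNS-TAC over Ctrl-TAC on the log2(FPKM + 1) scale with 95% intervals from limma (n = 3 libraries each), with the median of all genes tested as a dashed line. Every interval crosses 0, and the widest is that of Casq1, from -3.07 to 0.11.

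The order of the group mean levels, per length, was *Atp2a2*, *Pln*, *Casq2*, *Hrc*, *Jph2* and *Ryr2* in both groups. *Slc8a1*, *Cacna1c* and *Trdn* followed in VNS-TAC and *Slc8a1*, *Trdn* and *Cacna1c* in Ctrl-TAC, with *Casq1* last in each. *Atp2a2* was above *Pln*, *Pln* above *Casq2*, *Jph2* above *Ryr2*, *Ryr2* above *Slc8a1* and *Cacna1c* above *Casq1* with no overlap over the 6 libraries. *Casq2* was above *Hrc* in 5 of 6 libraries, the exception being VNS-TAC 3, and *Hrc* above *Jph2* in 6 of 6, though their ranges overlapped. *Slc8a1* was above *Trdn* in 4 of 6 and *Trdn* above *Cacna1c* in 2 of 6, so *Trdn* could not be placed beyond its spread.

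Ratios of 2 genes within a library do not depend on how libraries are scaled, and 8 were compared with a 2-sided exact permutation test, whose smallest possible p is 0.1 with 3 libraries against 3. The ratio of *Casq1* to *Casq2* was the one of the 8 without overlap, at 0.0230, 0.0153 and 0.00422 in VNS-TAC 1 to 3, against 0.0437, 0.0260 and 0.0281 in Ctrl-TAC. The log2 difference was -1.48 (exact p = 0.1; Benjamini-Hochberg adjusted p = 0.8), and -0.76 without VNS-TAC 3. The 3 VNS-TAC libraries were all below the 3 controls.

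The ratio of *Pln* to *Atp2a2*, inhibitor to pump, was 0.349, 0.488 and 0.790 in VNS-TAC 1 to 3, against 0.647, 0.604 and 0.446 in Ctrl-TAC. VNS-TAC 1 had the lowest and VNS-TAC 3 the highest ratio of all libraries, and the log2 difference between groups was -0.12 (exact permutation p = 0.8). The ratio of *Atp2a2* to *Slc8a1*, SR uptake to extrusion, was 103.0, 84.4 and 52.4 in VNS-TAC, against 110.2, 96.3 and 90.6 in Ctrl-TAC, with a log2 difference of -0.36 (exact permutation p = 0.3), and -0.08 without VNS-TAC 3. VNS-TAC 2 and VNS-TAC 3 were below the controls and VNS-TAC 1 among them.

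*Ryr2* to *Atp2a2* was close in all libraries, at 0.0229, 0.0301 and 0.0311 in VNS-TAC, against 0.0265, 0.0296 and 0.0276 in Ctrl-TAC, a log2 difference of -0.01. *Hrc* to *Atp2a2* was at 0.135, 0.125 and 0.114 in VNS-TAC, against 0.136, 0.139 and 0.123 in Ctrl-TAC, a log2 difference of -0.09, and -0.03 without VNS-TAC 3. These pairs, release channel and luminal protein against pump, had the smallest SD of the 8 log2 ratios within VNS-TAC, 0.24 and 0.12. For *Trdn* to *Casq2*, anchor to storage protein, it was 1.39 in VNS-TAC, against 0.44 in Ctrl-TAC. That ratio was 0.0160, 0.0470 and 0.109 in VNS-TAC 1 to 3, against 0.0611, 0.0712 and 0.0396 in Ctrl-TAC, so VNS-TAC 1 and VNS-TAC 3 lay on opposite sides of every control. *Casq2* to *Ryr2* and *Jph2* to *Cacna1c* were likewise highest in VNS-TAC 1, at 8.25 and 11.3, and lowest in VNS-TAC 3, at 3.16 and 4.25, with the controls at 5.24 to 6.43 and 6.71 to 7.81.

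**Figure D4:**
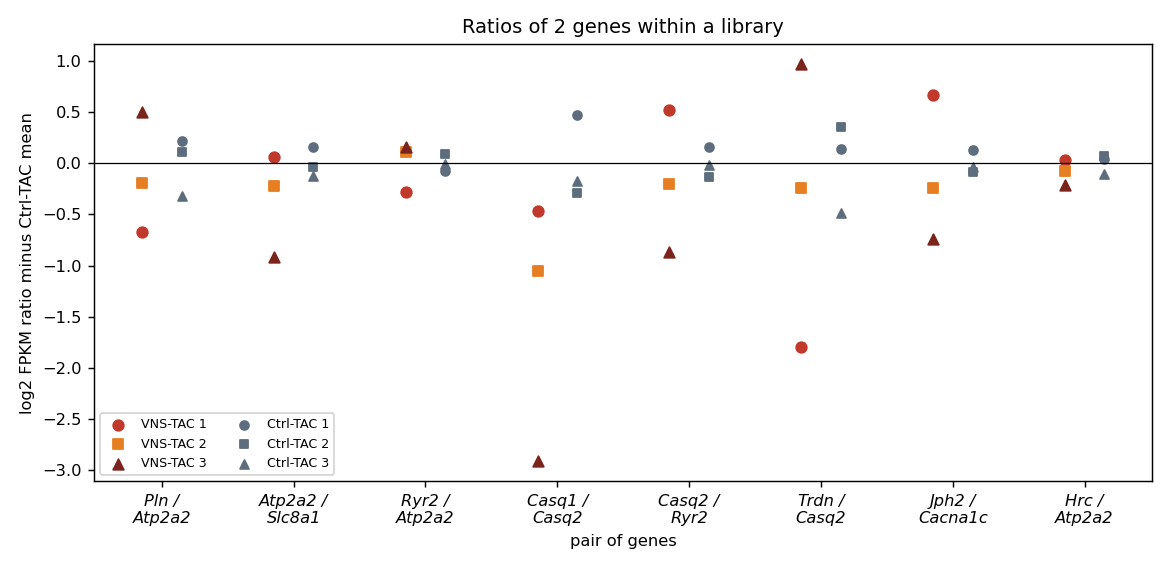
Log2 ratio of the FPKM of 2 genes in the same library, less the Ctrl-TAC mean, for 8 pairs (VNS-TAC in colours on the left, Ctrl-TAC in grey on the right of each pair). The groups are apart for Casq1 to Casq2 only, and VNS-TAC 1 and VNS-TAC 3 lie on opposite sides of 0 for all pairs but that one.

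Each gene was also read relative to the mean of the 15 cardiomyocyte markers of its library, on the log2 scale. That mean stood at 0.25, 0.15 and -0.28 relative to Ctrl-TAC in VNS-TAC 1 to 3, so subtracting it lowers values in VNS-TAC 1 and 2. *Casq1*, *Hrc* and *Atp2a2* then had no overlap between the groups, all 3 lower in VNS-TAC (exact permutation p = 0.1 each, the smallest possible; Benjamini-Hochberg adjusted p = 0.333 over the 10 genes). The share of all genes apart on this scale was not computed. Among the 15 markers themselves, the groups were apart and higher for 3 and apart and lower for 1. Over all genes tested these shares were 8.01% and 17.4%. The part of the markers in the separations was not tested. *Atp2a2* was at -0.06, 0.06 and -0.07 in VNS-TAC 1 to 3, against 0.07, 0.21 and 0.30 in Ctrl-TAC. The difference was -0.22, and VNS-TAC 2 lay just below Ctrl-TAC 1. Without the subtraction, *Atp2a2* was at 99.4%, 101.1% and 68.3% of the Ctrl-TAC mean FPKM in VNS-TAC 1 to 3. *Hrc* was at -2.95, -2.93 and -3.20 in VNS-TAC, against -2.80, -2.64 and -2.72 in Ctrl-TAC, a difference of -0.31. *Casq1* differed by -1.52, and by -0.83 without VNS-TAC 3. The other 7 genes overlapped. This set depended on how the markers were summarised: against their median, *Atp2a2* overlapped (exact permutation p = 0.3) and *Casq2* did not (difference -0.43, exact permutation p = 0.1), while *Casq1* and *Hrc* stayed apart.

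Base composition moved with some of these values. The longest coding transcript in GENCODE M21 has a G+C content of 36.8% for *Trdn*, 38.6% for *Pln*, 40.2% for *Slc8a1*, 47.2% to 53.3% for 6 others and 61.8% for *Jph2*. In VNS-TAC 1, *Trdn* deviated from the Ctrl-TAC mean by -1.48 and *Pln* by -0.68 on the log2 scale, *Slc8a1* by -0.07 and *Jph2* by 0.51. Over all 1042 genes tested with a G+C content under 42%, the median deviation was -0.71 in VNS-TAC 1, -0.19 in VNS-TAC 2 and -0.05 in VNS-TAC 3. Over the 2980 genes above 55% it was 0.11, 0.00 and 0.02. With the trend removed, the log2 fold change of *Trdn* was -0.32, against -0.69 with it, and those of *Casq1*, *Casq2* and *Hrc* were -1.46, -0.23 and -0.27. In VNS-TAC 3, *Jph2* deviated by -0.80, while the genes above 55% had the median of 0.02 given above.

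**Figure D5:**
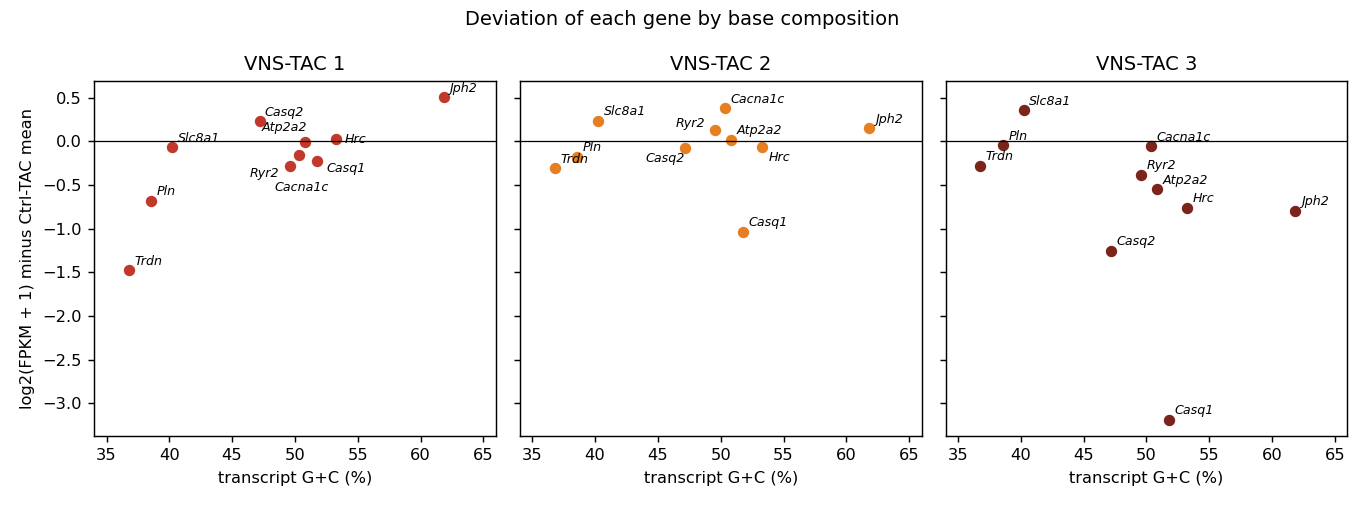
Deviation of log2(FPKM + 1) from the Ctrl-TAC mean against the G+C content of the longest coding transcript, for the 10 genes in each VNS-TAC library. In VNS-TAC 1 the lowest are the A+T-rich Trdn and Pln, and in VNS-TAC 3 they are Casq1 and Casq2 in the middle of the range.

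Beyond the 10 genes, 93 further genes of calcium handling were listed under 8 roles, of which 92 were in the table and 80 passed the filter. None of the 80 passed the adjusted threshold by limma, while 15 (18.8%) had an unadjusted p under 0.05, 14 of them lower and 1, *Popdc2*, higher, against 15.0% of all genes, 1286 lower and 433 higher. The groups did not overlap for 14 lower genes (17.5%) and 4 higher ones (5%), against 17.4% and 8.01% of all genes tested, so neither share stood far from the background. In all, 58 (72.5%) were lower and 22 higher, against 61.8% lower among all genes. Their median log2 fold change was -0.12, and that of all genes -0.08. Without VNS-TAC 3, 46 of the 80 were lower, against 63.8% of all genes in the same fit.

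Among SR release and junction genes, 6 of 12 were lower and 6 higher. *Jsrp1*, a junctional SR protein, was at 0.73 ± 0.50 FPKM in VNS-TAC, against 1.5 ± 0.16 FPKM in Ctrl-TAC (SD, n = 3 each). Of 5 SR uptake genes none reached an unadjusted p under 0.05, the nearest being *Ppp1r1a*, a phosphatase inhibitor, and *Calr*, calreticulin, with log2 fold changes of 0.13 and -0.13.

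Of 11 genes of sarcolemmal calcium channels, 10 were lower and 1 higher. Their median log2 fold change was -0.28. The accessory subunit gene *Cacna2d1* was at 9.79, 21.34 and 17.28 FPKM in VNS-TAC 1 to 3, against 26.22, 29.31 and 20.65 FPKM in Ctrl-TAC. *Cacna1g*, a T-type channel, was at 3.80 ± 0.85 FPKM in VNS-TAC, against 6.11 ± 1.51 FPKM in Ctrl-TAC (SD, n = 3 each). Both overlapped between the groups (limma adjusted p = 0.314 and 0.295). Of 6 extrusion genes, 5 were lower and 1 higher. The plasma membrane calcium pump gene *Atp2b1* was at 3.07, 6.37 and 6.15 FPKM in VNS-TAC, against 8.86, 8.93 and 6.52 FPKM in Ctrl-TAC. *Atp1b1*, a sodium pump subunit, was the higher one, at 173.02, 148.46 and 155.48 FPKM in VNS-TAC, against 137.86, 132.84 and 134.49 FPKM in Ctrl-TAC (log2 fold change 0.23; limma adjusted p = 0.375).

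Scaffolds of the dyad, the contact between the SR and the cell membrane, held the 2 smallest p-values of the 80 genes, and 8 of 12 were lower. *Ank2*, ankyrin-B, which anchors the exchanger, was at 10.30, 14.34 and 10.76 FPKM in VNS-TAC, against 17.44, 20.01 and 18.59 FPKM in Ctrl-TAC. This gave a log2 fold change of -0.63 ± 0.15 (SE; limma unadjusted p = 0.00374, adjusted p = 0.214). *Akap6*, which anchors protein kinase A near the ryanodine receptor, was at 10.96, 15.40 and 11.17 FPKM in VNS-TAC, against 18.59, 19.83 and 19.03 FPKM in Ctrl-TAC (log2 fold change -0.59 ± 0.15 SE; limma adjusted p = 0.225). In both genes, named for their small p-values, every VNS-TAC library was below every control. The groups were apart for 2 lower and 1 higher of the 12 scaffold genes, against 17.4% and 8.01% of all genes tested. The higher gene *Popdc2*, a membrane protein of muscle, had levels of 435.98, 321.78 and 363.89 FPKM in VNS-TAC, against 281.24, 257.70 and 299.21 FPKM in Ctrl-TAC (log2 fold change 0.41; limma adjusted p = 0.279).

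Of 14 calcium-dependent kinase and phosphatase genes, 11 were lower. The groups were apart for 5 lower and 1 higher of them, against 17.4% and 8.01% of all genes tested. *Camk2d*, the main cardiac form of calcium/calmodulin-dependent kinase II, was at 29.73, 32.31 and 26.77 FPKM in VNS-TAC, against 40.10, 44.19 and 35.43 FPKM in Ctrl-TAC, without overlap (log2 fold change -0.42 ± 0.13 SE; limma adjusted p = 0.255). *Camk2b*, another form of the kinase, was at 2.51 ± 0.70 FPKM in VNS-TAC, against 4.10 ± 0.17 FPKM in Ctrl-TAC (SD, n = 3 each).

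The genes with profiles most like those of 4 of the 10 genes were sought over all genes tested, by the root mean square difference of centred log2 values over the 6 libraries. *Tnni3k*, a kinase of cardiomyocytes, was nearest to *Atp2a2* at 0.037, followed by *Aoc3* at 0.040. A pseudogene, Gng5-ps, came next and is uncertain, since its reads may be shared with *Gng5*. *L1cam*, *Nceh1* and *Arhgef6* were nearest to *Ryr2*, at 0.065 to 0.066. *Zfp626*, *Btbd1* and *Hdgfl3* were nearest to *Pln*, at 0.026 to 0.030, and had a G+C content of 41.4%, 45.0% and 41.1%. *L1cam* was at 0.64 to 1.42 FPKM over the libraries, *Zfp626* at 0.43 to 1.58 FPKM and *Hdgfl3* at 1.10 to 2.68 FPKM. At such levels log2(FPKM + 1) shrinks differences, so these matches are uncertain. The nearest to *Casq1* were *Fcrls*, *Col6a2* and *Tcim*, at 0.307 to 0.322. This measure grows with the size of a gene's own changes, so it does not rank likeness between the 4 genes. *Col6a2*, a collagen, was at 33.62, 17.91 and 5.93 FPKM in VNS-TAC 1 to 3, against 43.72, 44.56 and 38.35 FPKM in Ctrl-TAC.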

How the data were processed

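The 6 bulk RNA libraries from mouse heart, 3 VNS-TAC and 3 Ctrl-TAC, followed oligo-dT capture, per the labels' protocols. The authors deposited FPKM values to 2 decimals, per the file headers. DESeq 1.8.3, featureCounts 1.5.0-p3, HISAT and GRCm38 appear in the submitters' processing notes with no role stated. The sources used here do not give the annotation, strand or counting settings. Library names matched the Ctrl-TAC columns to samples. For VNS-TAC the table counts 1 to 3 and the labels 4 to 6, so these columns stand for the group and keep the table's numbers.

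Symbols came from RefSeq (GRCm38.p6) for 17890 of 18019 IDs, and G+C content from GENCODE M21. Ratios used FPKM itself and all other comparisons log2(FPKM + 1), which shrinks differences of low genes. A mean of at least 1 FPKM left 11422 genes, which were compared with limma 3.58.1 (R 4.3.3, intensity trend, 4 residual degrees of freedom). Benjamini-Hochberg adjustment covered all of them. Ratios and relative values were compared by exact permutation over 20 assignments (SciPy 1.17.1). The script was tested on simulated data. Depth was estimated from the steps of low values of genes with transcripts under 1500 bases, is approximate and entered no test. Intervals cover the spread between libraries.

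The 10 genes, the lists and the rule for named genes were chosen with earlier results of these data known. The rule took the 10 genes, the 2 others of each list with the smallest unadjusted p, the 3 nearest profiles of *Ryr2*, *Atp2a2*, *Pln* and *Casq1*, and the 2 highest markers of a list, here named for cardiomyocytes and skeletal muscle. *Myh1*, *Myh4*, *Ryr1*, *Cacna1s*, *Bmp10*, *Tnni2*, *Mylpf* and *Popdc2* were named after their values were seen. A gene that the rule names is not reported here.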

Additional observations from a re-analysis of the deposited data

How the results depend on the processing

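The comparison was repeated under 18 alternatives: other pseudocounts (0.1 and 0.5), no filter or one at a mean of 5 FPKM, size factors, quantile normalization, one FPKM sum for all libraries, limma without the trend, robust or with array weights, removal of G+C or length trends, and each library left out. None of the 10 genes passed the adjusted threshold in any of them. The smallest adjusted p was 0.0536, for *Casq1* with array weights, which gave VNS-TAC 2 a weight of 2.70 against 0.249 and 0.241 for VNS-TAC 1 and 3. Of 180 values of the 10 genes, 167 kept their direction and 13 reversed, and 4 genes never reversed. For these changes, the cause was not tested. Either change of the filter, limma without the trend and robust limma cannot alter a log2 fold change. Their part of the 167 was therefore fixed in advance and says nothing about stability.

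With array weights, 986 genes passed the adjusted threshold, the median of the 10 genes was -0.042, 5 were lower, 3 other pathway genes passed it, 28 had an unadjusted p under 0.05, and the log2 fold changes of *Ryr2*, *Jph2* and *Atp2a2* were 0.10, 0.11 and 0.011. With these weights 3437 of all 11422 genes had an unadjusted p under 0.05, their median was -0.081 over all genes, and 63.3% of all genes were lower. Of all genes, 1 passed with the higher filter and 2 each with size factors, quantile normalization or the G+C trend removed. With the length trend removed *Ryr2* was at 0.11 and *Jph2* at 0.068, and with size factors *Jph2* was at 0.052. With the G+C trend removed *Pln* was at 0.037, and with one FPKM sum *Cacna1c* was at -0.017. The groups were apart for 1 gene (*Hrc*) after quantile normalization, for 2 (*Casq1* and *Hrc*) with one FPKM sum, and for 1 (*Slc8a1*) with either trend removed. Of all genes, 1185 of 11422 were apart and lower and 1603 apart and higher after quantile normalization. With one FPKM sum these were 2802 and 514 of 11435. With the G+C trend removed they were 1404 and 1255 of 11319, and with the length trend removed 1281 and 1471. Of the 80 other pathway genes, 9 had an unadjusted p under 0.05 with size factors, 4 with the length trend removed and 6 after quantile normalization. Over all genes these fits gave 1699 of 11416, 1624 of 11319 and 1666 of 11422. The share of the pathway genes, above that of all genes in the main fit, was below it in each of these settings. With size factors 43 of those 80 genes were lower, against 49.9% of all genes. Relative to the median of the cardiomyocyte markers *Cacna1c* differed by -0.0089.

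Leaving out each library in turn gave 0 to 3 genes past the adjusted threshold, a median of the 10 genes of -0.35 to -0.0066, 5 to 9 of them lower, 0 to 3 with groups apart and 3 to 19 other pathway genes at an unadjusted p under 0.05, the lowest without Ctrl-TAC 1. Over all 11422 genes, 766 to 2515 had an unadjusted p under 0.05, with 835 without Ctrl-TAC 1. The median of all genes ran from -0.097 to -0.046, and 56.6% to 63.8% were lower. Groups of 2 libraries separate more easily, and 2254 to 3249 of all genes were apart and lower, 1075 to 1703 apart and higher. The log2 fold change ran from -0.67 to 0.075 for *Casq2*, -0.32 to 0.33 for *Jph2*, -0.28 to 0.0063 for *Atp2a2* and -0.10 to 0.16 for *Cacna1c*. Log2 ratio differences ran from -0.44 to 0.15 for *Pln* to *Atp2a2*, -0.087 to 0.13 for *Ryr2* to *Atp2a2*, -0.54 to 0.16 for *Casq2* to *Ryr2*, -1.02 to 0.36 for *Trdn* to *Casq2* and -0.49 to 0.21 for *Jph2* to *Cacna1c*. Relative to cardiomyocyte markers they ran from -0.26 to 0.12 for *Jph2*, -0.092 to 0.23 for *Cacna1c* and -0.12 to 0.36 for *Slc8a1*. No paired analysis was possible because VNS-TAC columns and labelled samples carry different numbers, so a replicate block was not run. Depth limits *Casq1* in VNS-TAC 3 most, at about 26 fragments. The alternatives for counts among the 10 genes and among the other pathway genes were added after seeing the data.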

Other observations

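All 8 tested genes of inositol trisphosphate receptors and store-operated entry were lower in VNS-TAC (median log2 fold change -0.17), where 61.8% of all genes were lower with a median of -0.08. None passed the adjusted threshold by limma, and 2 had an unadjusted p under 0.05, as 15.0% of all genes did. *Itpr1*, an inositol trisphosphate receptor, was at 3.35, 5.25 and 5.11 FPKM in VNS-TAC 1 to 3, against 6.54, 7.16 and 5.67 FPKM in Ctrl-TAC. *Stim2*, a sensor of store calcium, was at 2.88, 3.57 and 4.61 FPKM in VNS-TAC, against 5.16, 5.82 and 5.23 FPKM in Ctrl-TAC. In both genes, named for their small p-values, the VNS-TAC libraries were all below the controls. That held for 3 of the 8 genes, against 17.4% of all genes tested.

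The mitochondrial calcium uniporter list was near even, with 7 of 12 genes lower, a median log2 fold change of -0.06 and means relative to Ctrl-TAC of 0.00, -0.02 and -0.07 in VNS-TAC 1, 2 and 3. *Micu2*, a gatekeeper of the uniporter, was at 30.98, 42.27 and 40.26 FPKM in VNS-TAC, against 50.47, 47.77 and 45.50 FPKM in Ctrl-TAC (log2 fold change -0.34; limma adjusted p = 0.329). *Vdac2*, a channel of the outer mitochondrial membrane, was at 306.19, 284.42 and 311.90 FPKM in VNS-TAC, against 251.52, 254.76 and 267.18 FPKM in Ctrl-TAC (log2 fold change 0.22; limma adjusted p = 0.384). Both genes, named for their small p-values, had no overlap between the groups, in opposite directions. They were the 1 lower and 1 higher gene apart of the 12, against 17.4% and 8.01% of all genes tested.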
